A study of Rattus norvegicus with 42 samples.

Results

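The genes described here encode the parts of a peroxidase defence of the airway surface: the anion exchanger pendrin (Slc26a4), the secreted enzyme lactoperoxidase (Lpo), the dual oxidases Duox1 and Duox2, and their maturation factors Duoxa1 and Duoxa2. These 6 genes were taken by symbol from the 30044 gene symbols that 2 deposited count tables of rat lung share, and all 6 were present. They were chosen by the silica minus air results of these same rats, so those differences describe the genes and test nothing. The data are RNA sequencing of whole lung from 42 male Fischer 344 rats, an inbred strain, bought at 3 months of age. The high-fat diet (HFD) gave 60% of its energy as fat and the regular diet (RD) 18%, from 2 weeks before exposure until the end. The silica groups inhaled crystalline silica with the whole body exposed, at 15 mg/m3 over 5 daily sessions of 6 hours, and the air groups inhaled air alone. At 9 months after exposure there were 6 HFD silica, 6 HFD air, 5 RD silica and 6 RD air rats, and at 3 months 5 HFD silica, 5 HFD air, 5 RD silica and 4 RD air rats. The study asks how a diet rich in fat changes the response of the lung to silica.

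In airways, pendrin in the apical membrane exchanges chloride for other anions, among them bicarbonate and thiocyanate. Dual oxidases are NADPH oxidases that release hydrogen peroxide at the cell surface, and each needs its Duoxa partner to leave the endoplasmic reticulum. Lactoperoxidase uses that peroxide to oxidise thiocyanate to hypothiocyanite, which is toxic to microbes. Interleukin-13, interleukin-4 and interleukin-17 are known to raise pendrin in cultured airway epithelium, and pendrin with Duox2 also serves hormone synthesis in the thyroid.

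The 4 Duox genes are neighbours on chromosome 3, in the order Duox2, Duoxa2, Duoxa1, Duox1, and Lpo lies beside Mpo, the neutrophil myeloperoxidase gene, on chromosome 10. Because the strand setting of the counting is not given in the sources used here, reads from such close neighbours may be shared between them. RefSeq promoter windows of the GRCr8 assembly, a later build than that of the count tables, were at hand for 5 of the 6 genes, and 4 are printed to set the genes with large silica differences beside Duox2, whose silica and air rats overlapped. Each window is the 250 bases before the annotated start, read 5′ to 3′ on the gene's strand: Slc26a4 at chr6:53873217-53873466 (minus strand), Lpo at chr10:73123457-73123706 (minus strand), Duox1 at chr3:129715746-129715995 (plus strand) and Duox2 at chr3:129698754-129699003 (minus strand). Capitals mark the letters that matched a searched motif.
Slc26a4: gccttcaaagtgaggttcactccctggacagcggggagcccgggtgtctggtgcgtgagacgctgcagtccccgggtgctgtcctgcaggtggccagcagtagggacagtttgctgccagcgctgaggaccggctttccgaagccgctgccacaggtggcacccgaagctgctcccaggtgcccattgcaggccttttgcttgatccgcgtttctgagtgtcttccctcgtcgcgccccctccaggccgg
Lpo: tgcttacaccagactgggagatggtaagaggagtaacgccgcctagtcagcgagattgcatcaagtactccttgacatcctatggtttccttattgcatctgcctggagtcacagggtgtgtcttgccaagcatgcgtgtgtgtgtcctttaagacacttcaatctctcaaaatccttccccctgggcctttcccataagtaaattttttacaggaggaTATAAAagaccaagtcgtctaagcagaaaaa
Duox1: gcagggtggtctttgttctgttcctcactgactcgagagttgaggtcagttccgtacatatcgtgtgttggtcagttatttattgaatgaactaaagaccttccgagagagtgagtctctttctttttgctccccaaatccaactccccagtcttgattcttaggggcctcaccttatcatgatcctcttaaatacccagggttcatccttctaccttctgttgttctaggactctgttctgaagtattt
Duox2: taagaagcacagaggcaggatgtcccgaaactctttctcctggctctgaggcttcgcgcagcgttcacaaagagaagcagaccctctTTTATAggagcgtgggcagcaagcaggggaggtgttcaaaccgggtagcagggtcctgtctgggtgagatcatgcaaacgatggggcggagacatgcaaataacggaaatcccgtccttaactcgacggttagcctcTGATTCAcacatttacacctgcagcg
The windows were searched on both strands for the letters of the STAT6 motif (TTCNNNNGAA), the STAT motif (TTCNNNGAA), the AP-1 motif (TGANTCA), the C/EBP motif (TTGCNNAA), the NF-kB consensus and the TATA box (TATAAA), the last of which was added after the sequences had been seen. TATAAA stood 31 to 26 bases before the start of Lpo, and on the opposite strand 163 to 158 bases before the start of Duox2. The AP-1 letters stood 26 to 20 bases before the start of Duox2, on both strands since the motif reads alike on each. No other match was found in the windows of these genes or of Duoxa1. Of all 33469 promoter windows of this length, 12.9% held the TATA letters, 6.34% AP-1, 6.25% STAT6, 7.67% STAT, 9.22% C/EBP and 6.33% NF-kB. The share of G and C was 65.6% for Slc26a4 and 66.4% for Duoxa1, 53.6% for Duox2, 45.6% for Lpo and 44% for Duox1. A match is only a run of letters and says nothing about binding.

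Levels are given in CPM (counts per 1000000 of the library size after TMM scaling of all 42 libraries), and differences as log2 fold changes with the standard error (SE) from edgeR. CPM is not corrected for gene length, so levels are compared between groups and not between genes. Library totals ran from 3078216 to 8319382 counts at 9 months and from 5143424 to 8259635 at 3 months. At 9 months the share of counts on ribosomal RNA genes differed between groups, with means of 7.66% in HFD silica, 6.21% in HFD air, 3.67% in RD silica and 1.22% in RD air rats, whereas the 3-month means lay between 0.957% and 1.26%. On each diet the silica and air rats of 9 months did not overlap in this share. It was 7.29% to 7.85% against 4.62% to 7.19% on HFD and 2.60% to 5.35% against 0.375% to 2.29% on RD, silica first. Silica and this share therefore cannot be told apart at 9 months. The surfactant-making type 2 cell genes that mark lung were abundant in every group, with summed levels from 14900 to 38430 CPM per rat. Of the 6 genes, Slc26a4, Lpo, Duox1 and Duoxa1 passed the filter on low counts at both times and Duox2 and Duoxa2 passed at neither. Lpo passed only through its silica groups.

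Slc26a4 was far higher in every silica rat than in any air rat at the same time, on both diets. At 9 months it ranged from 241.3 to 303.8 CPM with a median of 287 CPM in HFD silica rats, against 1.99 to 14.65 CPM with a median of 3.11 CPM in HFD air rats. On the regular diet it was 227.3, 315.2, 329, 225.5 and 195.2 CPM in silica rats, against 5.90 to 19.69 CPM with a median of 9.29 CPM in air rats. The HFD silica rats lay close together, and 1 HFD air rat, rat 6, stood well above its group. In means, that is 280.5 ± 25.2 CPM with silica and 4.89 ± 4.83 CPM in air on HFD (SD, n = 6 each), and 258.4 ± 59.7 CPM in 5 RD silica rats and 11.2 ± 5.32 CPM in 6 RD air rats. The log2 differences of silica minus air were 5.99 ± 0.29 on HFD (95% interval 5.39 to 6.60) and 4.56 ± 0.27 on RD (4.01 to 5.11), which are 63.6-fold and 23.5-fold. In whole lung, more cells that express a gene and more RNA per cell cannot be told apart, and this holds for every value here.

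At 3 months the same separation was present at lower silica levels. Slc26a4 stood at 117.3, 73.7, 59.7, 67.3 and 65.5 CPM in HFD silica rats, against 2.74, 3.29, 2.12, 6.32 and 3.24 CPM in HFD air rats. On the regular diet it stood at 110.99, 86.7, 93.5, 181.1 and 88.4 CPM in silica rats, against 3.92, 9.46, 4.45 and 9.00 CPM in air rats. One rat of each silica group was well above the others, and so was 1 HFD air rat. The log2 differences were 4.42 ± 0.31 on HFD (21.4-fold) and 4.02 ± 0.30 on RD (16.2-fold). Ordered by mean, the 8 groups ran from the 9-month silica groups through the 3-month silica groups to the air groups, and only the steps from the 9-month to the 3-month silica groups and from silica to air left a gap between rats.

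**Figure D1:**
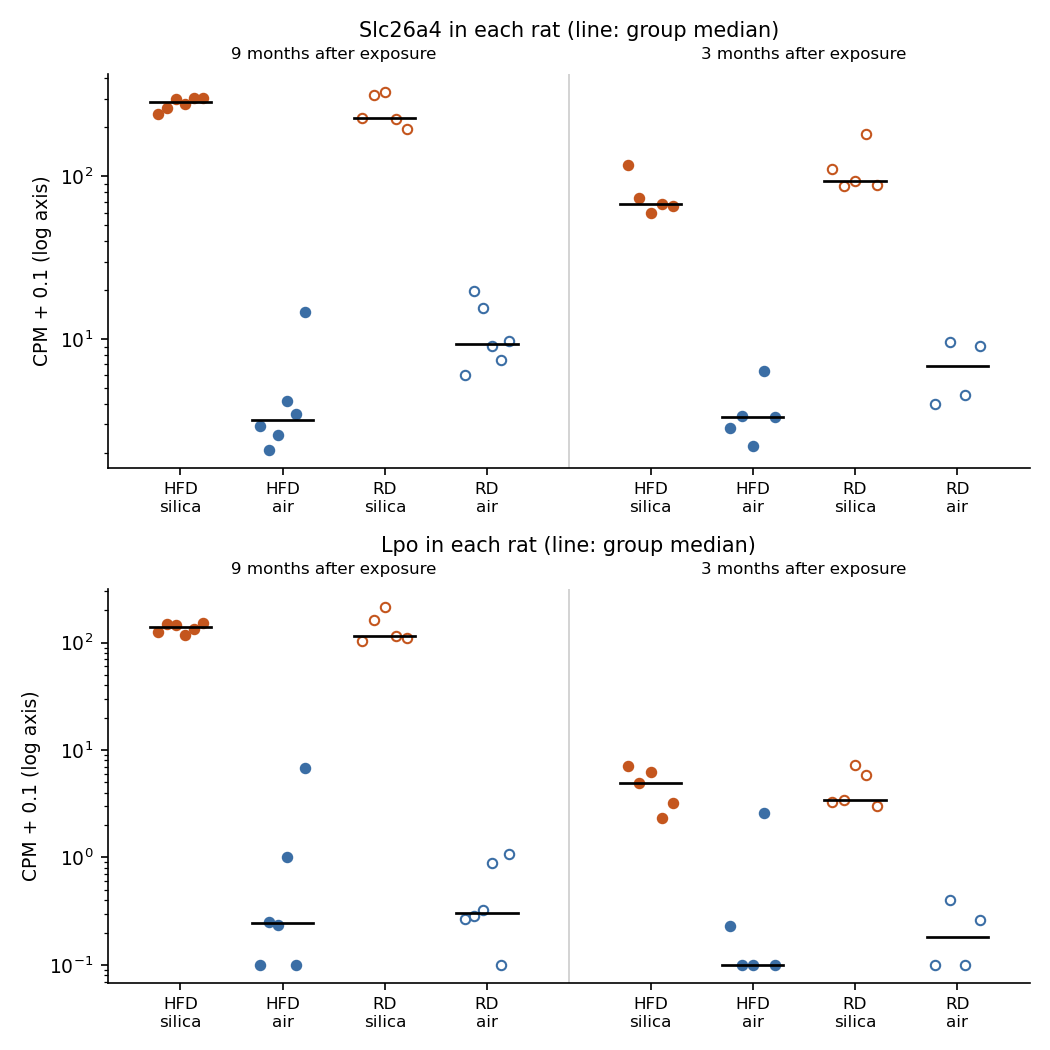
Levels of Slc26a4 (top) and Lpo (bottom) in each rat, in CPM plus 0.1 on a log axis, with filled symbols for the high-fat diet, open symbols for the regular diet, orange for silica, blue for air and a line at each group's median. Silica rats lie above all air rats of their diet and time except for Lpo on HFD at 3 months, where HFD air rat 4 at 2.5 CPM lies above the lowest silica rat at 2.24 CPM.

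Lpo was nearly silent in air lungs, high in silica lungs at 9 months and low in them at 3 months. At 9 months it had 428 to 996 counts per rat in HFD silica rats, with a median of 713, against 0 to 30 counts with a median of 1 in HFD air rats. RD silica rats had 586, 914, 1387, 853 and 561 counts, against 0 to 7 counts with a median of 1 in RD air rats. As levels, these are 137.4 ± 14.3 CPM with silica and 1.33 ± 2.68 CPM in air on HFD (SD, n = 6 each), and 141.6 ± 46.7 CPM in the RD silica rats and 0.389 ± 0.391 CPM in the RD air rats (n = 5 and 6). No air rat came near a silica rat, and 30 of the 38 counts of the HFD air group came from rat 6, the rat that was also high in Slc26a4.

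Since the air counts were so few, the Lpo differences are given as ratios of summed levels with 95% counting intervals, which cover counting error only. At 9 months the ratio of silica to air was 140.9 (102 to 199) on HFD and 593.6 (301 to 1380) without HFD air rat 6. On RD it was 314 (193 to 550), from 4301 counts with silica and 16 in air. At 3 months Lpo had 46, 34, 51, 13 and 22 counts in HFD silica rats, against 1, 0, 0, 17 and 0 counts in HFD air rats. RD silica rats had 21, 25, 61, 36 and 22 counts, against 0, 2, 0 and 1 counts in RD air rats. So 17 of the 18 counts of the HFD air group came from rat 4, which overlapped the silica rats, while the RD groups did not overlap. The ratio was 8.64 (5.30 to 14.9) on HFD with all rats and 123 (21.8 to 4890) without rat 4, from 1 air count, and 36.7 (12.3 to 180) on RD, from 3 air counts. Without RD air rat 2 the last ratio was 79.7 (14.1 to 3170), again from 1 air count. With silica the 9-month means of 137.4 and 141.6 CPM stood beside 3-month means of 4.64 and 4.49 CPM (HFD first), and the rats of the 2 times did not overlap.

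Duox1, the oxidase, and Duoxa1, its maturation factor, were higher with silica by much less than Slc26a4 and Lpo. At 9 months Duox1 ranged from 54.3 to 92.99 CPM with a median of 71.2 CPM in HFD silica rats, against 10.1 to 18.7 CPM with a median of 15.5 CPM in HFD air rats. On RD it was 52.8, 65.2, 38.5, 54.8 and 43.3 CPM in silica rats, against 10.5 to 16.6 CPM with a median of 13.7 CPM in air rats. The log2 differences of silica minus air were 2.29 ± 0.16 on HFD (4.88-fold) and 1.92 ± 0.17 on RD (3.78-fold), with silica and air rats apart on both diets. At 3 months Duox1 was 18.4, 18.2, 12.9, 24.2 and 17.8 CPM in HFD silica rats, against 13.0, 9.39, 10.4, 11.9 and 11.5 CPM in HFD air rats, and 1 pair of rats overlapped. On RD it was 13.7, 10.4, 14.8, 20.4 and 10.1 CPM in silica rats, against 7.28, 9.31, 9.89 and 8.84 CPM in air rats, which did not overlap. The 3-month log2 differences were 0.67 ± 0.17 on HFD and 0.63 ± 0.20 on RD.

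Duoxa1 followed the same order of groups as Duox1. At 9 months it ranged from 15.8 to 31.9 CPM with a median of 23.1 CPM in HFD silica rats, against 6.76 to 9.63 CPM with a median of 7.30 CPM in HFD air rats. On RD it was 14.7, 23.97, 12.8, 20.7 and 16.7 CPM in silica rats, against 4.90 to 9.10 CPM with a median of 6.82 CPM in air rats. No silica rat overlapped an air rat of its diet, and the log2 differences were 1.59 ± 0.17 on HFD (3.02-fold) and 1.38 ± 0.19 on RD (2.61-fold). At 3 months the silica and air means were 9.16 ± 1.20 and 6.14 ± 1.36 CPM on HFD (SD, n = 5 each). The lowest silica rat at 7.96 CPM stood just above the highest air rat at 7.83 CPM. On RD the 5 silica rats averaged 6.95 ± 2.44 CPM and the 4 air rats 4.54 ± 1.56 CPM, and they overlapped. Those 3-month log2 differences were 0.58 ± 0.21 on HFD and 0.58 ± 0.25 on RD.

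**Figure D2:**
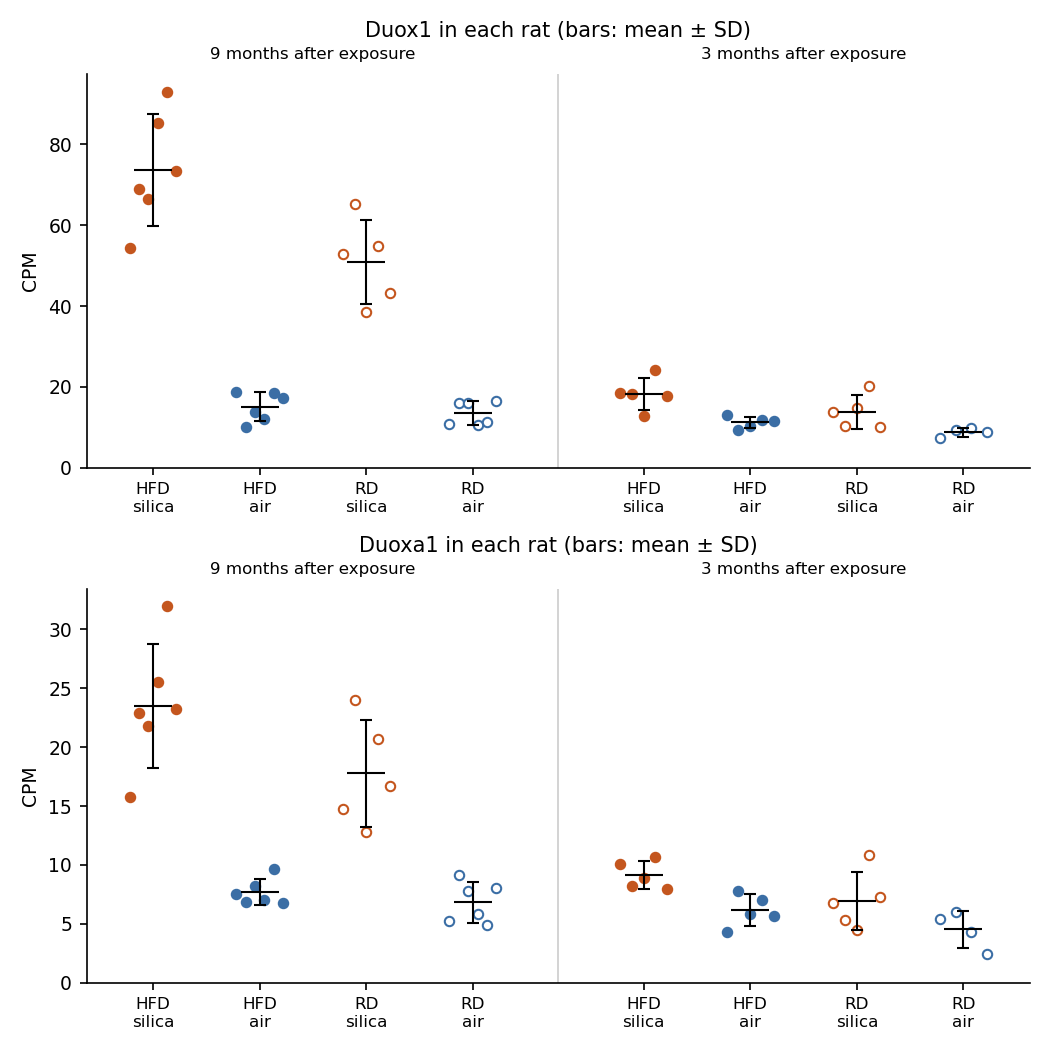
Levels of Duox1 (top) and Duoxa1 (bottom) in each rat in CPM, with filled symbols for the high-fat diet, open symbols for the regular diet, orange for silica, blue for air, and bars for the mean ± SD. The 9-month silica groups, with Duox1 means of 73.5 CPM on HFD and 50.9 CPM on RD, stand above every other group.

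Duox2, the other oxidase of the pair, and Duoxa2 stayed at a few counts per library throughout. At 9 months Duox2 had 3 to 13 counts with a median of 6 in HFD silica rats, against 5 to 16 counts with a median of 8 in HFD air rats. RD silica rats had 3, 7, 4, 7 and 3 counts, against 4 to 9 counts with a median of 5 in RD air rats. At 3 months HFD silica rats had 18, 15, 8, 7 and 8 counts of Duox2, against 9, 8, 12, 9 and 1 in HFD air rats. RD silica rats had 9, 8, 7, 7 and 3 counts, against 4, 3, 9 and 3 in RD air rats. Silica and air rats overlapped in all 4 comparisons. In a fit without the filter, silica minus air for Duox2 was -0.12 ± 0.30 on HFD (95% interval -0.74 to 0.50) and -0.19 ± 0.39 on RD (-0.98 to 0.60) at 9 months, and 0.42 ± 0.39 on HFD (-0.37 to 1.22) and 0.26 ± 0.52 on RD (-0.81 to 1.33) at 3 months.

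Duoxa2 ranged from 0 to 11 counts over all rats. Its group sums were 20 counts in HFD silica and 33 in HFD air rats, and 23 in RD silica and 31 in RD air rats at 9 months, and 23 in HFD silica and 21 in HFD air rats, and 32 in RD silica and 19 in RD air rats at 3 months. All groups overlapped, and the unfiltered silica minus air values were -0.40 ± 0.42 and -0.20 ± 0.41 at 9 months and 0.04 ± 0.56 and 0.17 ± 0.54 at 3 months, each pair with HFD first. At 9 months a difference of the size seen for Duox1 lay outside the 95% intervals of Duox2 (upper bounds 0.50 on HFD and 0.60 on RD). It also lay outside those of Duoxa2 (upper bounds 0.45 and 0.64). At 3 months the Duox1 differences of 0.67 on HFD and 0.63 on RD lay inside the intervals of Duox2 (upper bounds 1.22 and 1.33). They also lay inside those of Duoxa2 (upper bounds 1.20 and 1.28). Differences within these intervals were not detectable at this depth.

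**Figure D3:**
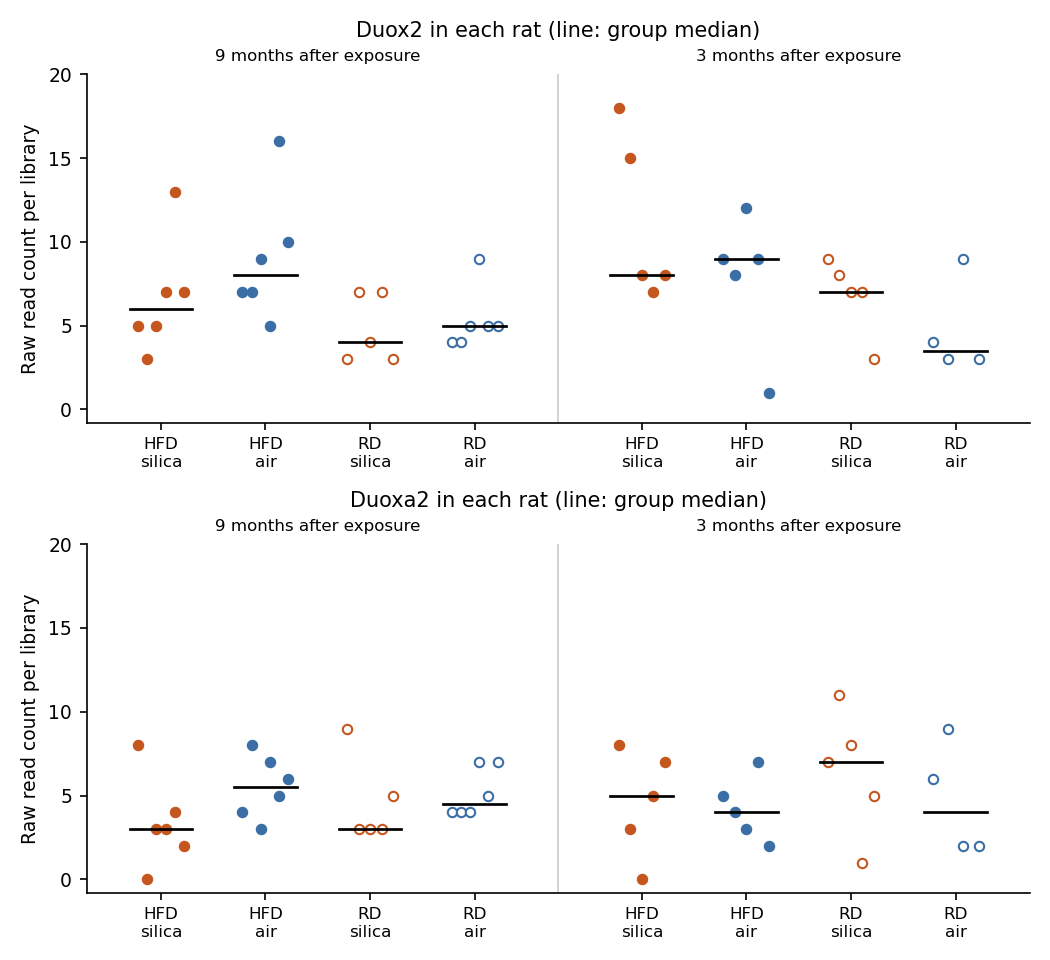
Raw read counts of Duox2 (top) and Duoxa2 (bottom) in each library, with filled symbols for the high-fat diet, open symbols for the regular diet, orange for silica, blue for air, and a line at each group's median. All rats lie between 0 and 18 counts and every silica group overlaps its air group.

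Set against all genes, the count of these genes whose silica rats all stood above all air rats was 4 of 6 on HFD at 9 months, where 16.7% of 15275 tested genes did so, and 4 of 6 on RD at 9 months, where 13.7% did so. At 3 months it was 2 of 6 on HFD (Slc26a4 and Duoxa1), against 7.33% of all genes, and 3 of 6 on RD (Slc26a4, Lpo and Duox1), against 8.89%. The genes were picked with these differences known, so nothing is read from the counts. Neutrophil marker genes, taken as a sum, were higher with silica as well. S100a9 alone averaged 792.2 CPM in HFD silica rats at 9 months. On HFD at 3 months the log2 differences of single markers ran from -0.69 to 4.39. The sum is of these markers. Their summed level of 7 genes, all detected in every group, ranged from 967.1 to 1234 CPM in HFD silica rats against 179.6 to 311.2 CPM in HFD air rats, and from 563.8 to 1492 CPM in RD silica rats against 122.5 to 402.8 CPM in RD air rats at 9 months. At 3 months it ranged from 452.7 to 577.4 CPM against 100.7 to 260.8 CPM on HFD, and from 527.3 to 802.6 CPM against 137.8 to 183.4 CPM on RD, each with silica first. The part of these cells in the results was not tested.

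**Figure D4:**
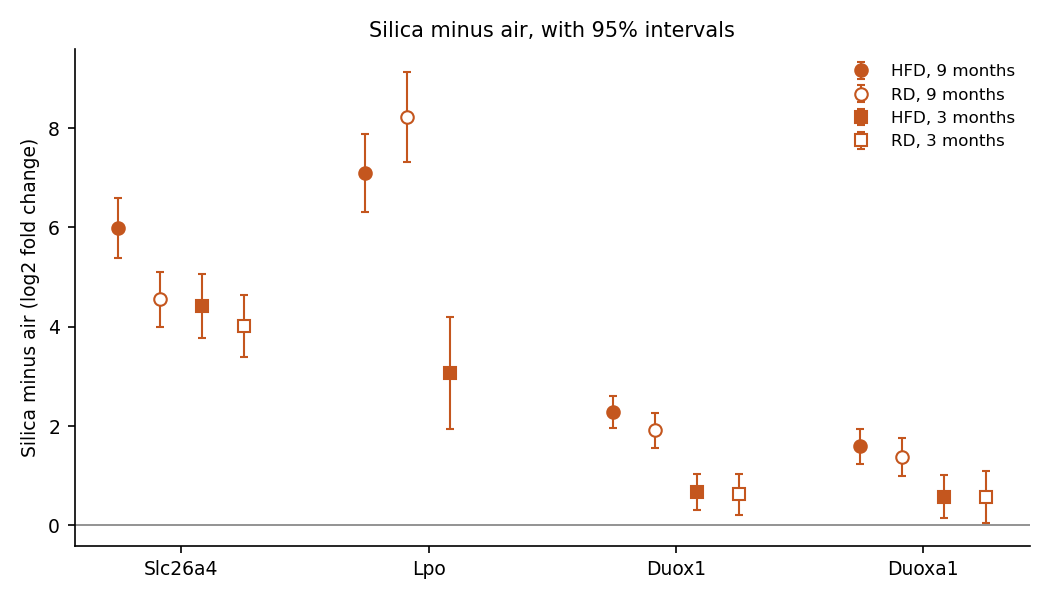
Silica minus air as log2 fold change for the 4 genes that passed the low-count filter, with 95% intervals from edgeR, filled for the high-fat diet and open for the regular diet, as circles at 9 months and squares at 3 months. Lpo on the regular diet at 3 months is left out because its air group had 3 counts in all, and the Slc26a4 values run from 4.02 to 5.99 while all Duox1 and Duoxa1 values lie below 2.5.

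The diet differences, which are not the silica contrasts that the genes were chosen by, were tested next with edgeR's quasi-likelihood test and Benjamini-Hochberg adjustment over all genes, with calls at an adjusted p below 0.05. In air at 9 months Slc26a4 was lower on HFD than on RD, by a log2 difference of -1.32 ± 0.35 (SE, adjusted p = 0.012), which is 0.401 of the RD level. The HFD air rats at 1.99 to 14.65 CPM overlapped the RD air rats at 5.90 to 19.69 CPM. Without HFD air rat 6 the other HFD air rats lay between 1.99 and 4.05 CPM, below every RD air rat, and the difference was -1.89. This was the largest difference when each of the 12 rats was left out, and the smallest was -1.08. Slc26a4 was the only call among the 4 genes tested, where 15.2% of all genes were called. Lpo, among these 4, passed the low-count filter only through its silica groups and had a median of 1 count in each air group. That Lpo was not called in air is therefore not read as a lack of difference. The ribosomal RNA share was 4.62% to 7.19% in these HFD air rats and 0.375% to 2.29% in the RD air rats, without overlap. Once it was added to the model the Slc26a4 difference was -1.37 with an adjusted p of 0.79, the highest over all alternatives (lowest 0.00018). Diet and this share cannot be told apart here, so that fit does not tell which of them the difference follows. At 3 months the same difference was -0.93 ± 0.49 and was not called (adjusted p = 0.28).

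Under silica at 9 months Duox1 was higher on HFD than on RD, by 0.53 ± 0.15 (adjusted p = 0.049, 1.44-fold), with 54.3 to 92.99 CPM in HFD silica rats against 38.5 to 65.2 CPM in RD silica rats. It was again the only call, where 3.52% of all genes were called. The adjusted p lay at the threshold: it ran from 0.058 to 0.14 without any one of 9 of the 11 rats and was below 0.05 without HFD silica rat 1 or RD silica rat 2. It was 1 when the model also held the ribosomal RNA share, and 0.052 in a fit of the 2 groups alone. That share was 7.29% to 7.85% in HFD silica and 2.60% to 5.35% in RD silica rats, so it and diet cannot be told apart here. Duoxa1 differed by 0.40 ± 0.16 (adjusted p = 0.18), Slc26a4 by 0.12 ± 0.22 (adjusted p = 0.83) and Lpo by -0.05 ± 0.23 (adjusted p = 0.95, 95% interval -0.52 to 0.43).

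At 3 months edgeR called none of the 4 genes for diet, in air, where 2.95% of all genes were called, or under silica, where 0.702% were. Under silica Slc26a4 was -0.54 ± 0.20 (adjusted p = 0.24), Duox1 0.40 ± 0.16 (adjusted p = 0.31) and Duoxa1 0.42 ± 0.20 (adjusted p = 0.39), all with an unadjusted p below 0.05. In air no unadjusted p of the 4 genes was below 0.05, and DESeq2 called none of those it gave an adjusted p for (Slc26a4 and Duox1 in both comparisons, Duoxa1 under silica). The air test of Lpo rested on 0 to 17 counts per HFD rat and 0 to 2 per RD rat, so nothing is read from it.

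The silica difference on HFD minus that on RD compares the size of the response between diets. It is built from the silica contrasts by which the genes were chosen, so its values are a description with 95% intervals and no p. At 9 months Slc26a4 was at 1.44 ± 0.41 (0.58 to 2.29), the 63.6-fold against the 23.5-fold difference above, and at 2.005 without HFD air rat 6. The silica groups averaged 280.5 CPM on HFD and 258.4 CPM on RD, and the air groups 4.89 CPM on HFD and 11.2 CPM on RD. Duox1 was at 0.37 ± 0.24 (-0.12 to 0.85) and Duoxa1 at 0.21 ± 0.26 (-0.32 to 0.74). Lpo, which passed the low-count filter only through its silica groups, was at -1.14 ± 0.99 and at 0.87 without HFD air rat 6. Over all genes, edgeR called 1.09% for this difference at 9 months. Calls of the genes described here are not taken as a result, since the silica contrasts chose them. Their number is given only where the processing is checked. At 3 months Slc26a4 was at 0.39 ± 0.52 (-0.69 to 1.48), and edgeR called 0% of all genes (990 at an unadjusted p below 0.05, and 1 gene by DESeq2).

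The change of the silica difference with time was estimated as 9 months minus 3 months in a model of all 8 groups. Each time has its own rats and table, so time, age and table cannot be told apart. The difference is built from the silica contrasts that the genes were chosen with, so it too is given as a description, with 95% intervals and no p. On HFD Duox1 differed by 1.61 ± 0.25 (1.10 to 2.12), Duoxa1 by 1.01 ± 0.29 (0.43 to 1.59) and Slc26a4 by 1.59 ± 0.54 (0.50 to 2.67). Slc26a4 lay between 1.24 and 2.12 when each of the 22 rats was left out, and Duoxa1 was at 0.91 without HFD air rat 2 of 3 months. Lpo, which passed the filter only through its silica groups, was at 4.04 ± 1.24, but at 0.73 without HFD air rat 4 of 3 months and at 6.02 without HFD air rat 6 of 9 months. Over all genes, edgeR called 10.7% for this difference. Calls of the genes described here are not taken as a result, since the silica contrasts chose them. Their number is given only where the processing is checked.

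On RD Duox1 differed by 1.28 ± 0.29 (0.70 to 1.87), Duoxa1 by 0.80 ± 0.34 (0.12 to 1.48) and Slc26a4 by 0.53 ± 0.46 (-0.40 to 1.45). Lpo was at 3.24 ± 2.83, against a 3-month air group with 3 counts in all. Over all genes, edgeR called 6.78% for this difference on RD, and calls of the genes described here are not given. Duox2, which passed the filter only when both tables were joined, was at -0.54 ± 0.49 on HFD (-1.53 to 0.45) and -0.44 ± 0.64 on RD (-1.73 to 0.86). The Duox1 silica means were 73.5 and 50.9 CPM at 9 months beside 18.3 and 13.9 CPM at 3 months, and its air means 15.1 and 13.5 CPM beside 11.3 and 8.83 CPM, HFD first in each pair.

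The other genes of the pathway were tested for silica minus air with edgeR over all genes. Of all genes tested at 9 months, 26.7% were called higher and 24.9% lower on HFD, and 24.5% higher and 20.6% lower on RD. At 3 months 9.23% were higher and 8.19% lower on HFD, and 10.2% higher and 6.6% lower on RD. The median log2 difference of all tested genes lay between -0.00854 and 0.00453 in these comparisons. As given above, silica and the ribosomal RNA share cannot be told apart at 9 months. On RD at 9 months 38 listed genes were called, and 27 to 38 over the alternative fits. On HFD at 9 months 41 were called, and 38 to 41 over the alternative fits.

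The other NADPH oxidases and their subunits, which make superoxide in phagocytes and some epithelia, were mostly higher with silica. Of 9 tested among 12 listed, 8 rose and 1 fell at 9 months on each diet, and 7 rose and 1 fell on HFD and 7 rose and 0 fell on RD at 3 months, with list medians of 1.07 and 0.85 at 9 months and 0.52 and 0.49 at 3 months (HFD first). Noxo1, an organiser subunit of the epithelial oxidase Nox1, averaged 81.3 ± 13.4 CPM in HFD silica rats and 12.2 ± 3.66 CPM in HFD air rats at 9 months. Its log2 differences were 2.76 ± 0.19 on HFD and 1.80 ± 0.18 on RD at 9 months, and 2.92 ± 0.12 on HFD and 2.57 ± 0.12 on RD at 3 months (largest adjusted p = 1.3e-08). Nox1 itself had at most 5 counts in any library. Ncf1, the p47phox organiser of the phagocyte oxidase, was at 2.02 ± 0.12 and 1.81 ± 0.12 at 9 months and at 0.58 ± 0.11 and 0.34 ± 0.12 at 3 months, HFD first (largest adjusted p = 0.049). Rac2, its small GTPase, was at 1.07 ± 0.07 on HFD and 0.87 ± 0.07 on RD at 9 months. Other phagocyte oxidase subunits rose as well, Cyba by 0.83 ± 0.12 on HFD at 3 months and Ncf4 by 0.85 ± 0.12 on RD at 3 months. The gene that fell on both diets at 9 months and on HFD at 3 months was Nox4, an oxidase found in vessels and fibroblasts, at -0.57 ± 0.10 on HFD and -0.54 ± 0.10 on RD at 9 months. As given above, the summed level of 7 neutrophil markers was higher in the same silica groups. Of these 7, 5 on HFD and 7 on RD at 9 months were called higher, and 3 and 6 at 3 months. The part of neutrophils in the oxidase values was not tested.

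**Figure D5:**
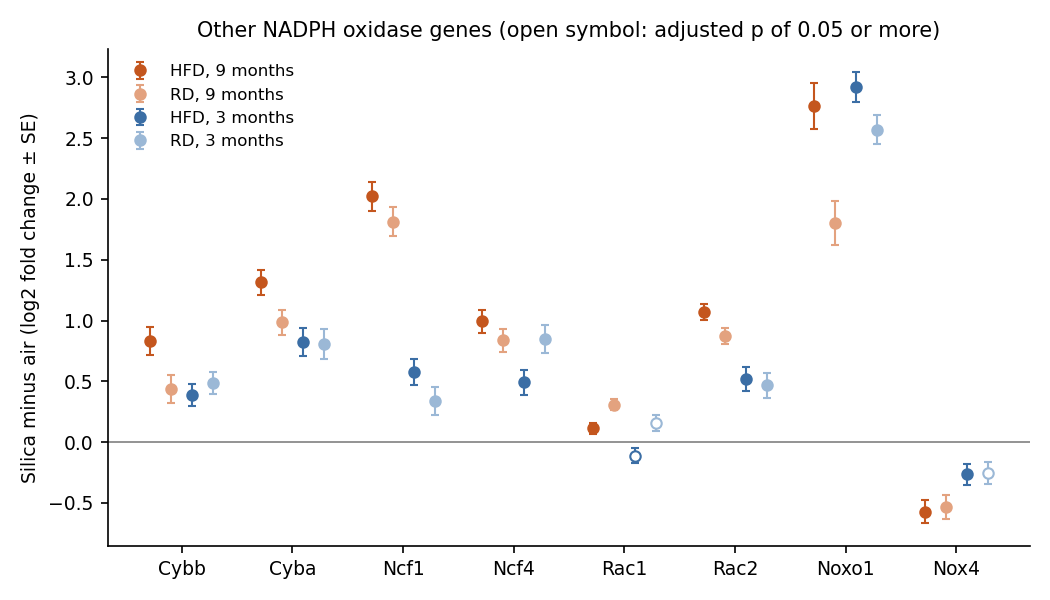
Silica minus air as log2 fold change ± SE for 8 of the 9 tested genes of the NADPH oxidase list, in 4 comparisons from left to right as in the legend, with open symbols where the adjusted p was 0.05 or more. Noxo1 and Ncf1 reach 2.92 and 2.02, and Nox4 lies below 0 in every comparison.

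Other members of the SLC26 family and apical anion transporters were called in both directions, more of them higher than lower. Of 12 tested among 18 listed, 7 rose and 1 fell on HFD and 6 rose and 1 fell on RD at 9 months, and 7 rose and 1 fell on HFD and 5 rose and 1 fell on RD at 3 months. The list medians were 0.47 and 0.18 at 9 months and 0.27 and 0.18 at 3 months, HFD first. Cftr, the chloride channel that also carries thiocyanate, averaged 32.5 ± 1.21 CPM in HFD silica rats and 16.8 ± 1.21 CPM in HFD air rats at 9 months (SD, n = 6 each). Its differences were 0.96 ± 0.10 on HFD and 0.65 ± 0.10 on RD at 9 months and 0.76 ± 0.13 on HFD and 0.79 ± 0.14 on RD at 3 months (largest adjusted p = 0.00036). Slc26a11 rose by 1.25 ± 0.12 and Slc26a6, a chloride and bicarbonate exchanger, by 0.73 ± 0.09 on HFD at 9 months. Slc26a3, an intestinal chloride exchanger, fell on HFD at 9 months, with 0 to 4 counts in silica rats against 12 to 48 in air rats (-3.74 ± 0.63, adjusted p = 1.2e-05), and on RD it was at -0.80 ± 0.38 (adjusted p = 0.087). Under silica at 9 months its HFD minus RD difference was -3.18 ± 0.71 (adjusted p = 0.013), whereas the test of its silica difference between diets was not called (-2.94 ± 0.81, adjusted p = 0.064). At 3 months Slc4a2, another anion exchanger, rose by 0.27 ± 0.05 on HFD and 0.33 ± 0.06 on RD, and at 9 months Slc26a2, a sulfate transporter, rose by 0.57 ± 0.09 on RD.

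Among the other haem peroxidases no gene was called higher. None of the 3 tested among 7 listed (6 in the tables) was called higher in any of the 4 comparisons, and Pxdn, the basement membrane peroxidasin, was lower at -0.52 ± 0.07 on HFD and -0.51 ± 0.07 on RD at 9 months and at -0.16 ± 0.06 on HFD at 3 months (largest adjusted p = 0.043). The list medians were 0.06 and -0.41 at 9 months and 0.05 and -0.05 at 3 months, HFD first. The prostaglandin synthases Ptgs1 and Ptgs2 were at 0.06 ± 0.06 and 0.28 ± 0.21 on HFD at 9 months and were called in none of the 4 comparisons. Mpo, the neighbour of Lpo, had at most 3 counts in any library, and Epx, the eosinophil peroxidase, at most 3. Of 14 genes that handle peroxide and superoxide, 4 rose and 4 fell at 9 months on each diet, and 3 rose and 2 fell on HFD and 5 rose and 0 fell on RD at 3 months, with medians of 0.04 and 0.08 at 9 months and 0.06 and 0.15 at 3 months (HFD first). Sod2, the mitochondrial superoxide dismutase, rose by 1.42 ± 0.08 and 1.38 ± 0.08 at 9 months and by 1.27 ± 0.10 and 1.52 ± 0.10 at 3 months, HFD first. Prdx5, a peroxiredoxin, rose by 1.52 ± 0.10 and 1.21 ± 0.10 at 9 months and by 0.98 ± 0.11 and 0.88 ± 0.12 at 3 months, HFD first. Prdx1 rose by 0.77 ± 0.09 on HFD at 9 months and Gpx1, a glutathione peroxidase, by 0.52 ± 0.11 on RD at 3 months. Prdx6 was lower, at -0.40 ± 0.07 on RD at 9 months and -0.26 ± 0.06 on HFD at 3 months.

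Of 16 listed cytokines, receptors and STAT factors known to raise pendrin or Duox genes in airway epithelium, 7 were tested. On HFD 5 rose and 2 fell and on RD 5 rose and 1 fell at 9 months, and on HFD 0 rose and 1 fell and on RD 3 rose and 0 fell at 3 months. The medians were 0.35 and 0.36 at 9 months and 0.09 and 0.18 at 3 months, HFD first. Il1b, the interleukin-1β gene, rose by 0.69 ± 0.16 on HFD and 0.83 ± 0.17 on RD at 9 months (adjusted p = 0.00084 and 0.00026). Il17ra, an interleukin-17 receptor chain, rose by 0.45 ± 0.05 and 0.40 ± 0.05, and Stat3 by 0.35 ± 0.05 and 0.36 ± 0.05 at 9 months, HFD first. Il4r, the receptor chain shared by interleukin-4 and interleukin-13, fell on HFD by 0.36 at 9 months (adjusted p = 0.0098) and by 0.62 at 3 months (adjusted p = 0.00041). On RD Il4r fell by 0.33 at 9 months (adjusted p = 0.024) and was at -0.24 at 3 months (adjusted p = 0.16). The ligands Il4, Il13, Il17a, Il17f, Il22 and Tnf had at most 4 counts in any library and Ifng at most 7, so their differences were not detectable at this depth.

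Genes listed for airway secretory and serous gland cells and for ionocytes and intercalated cells were checked as well. Of 12 tested airway secretory and serous gland genes among 14 listed, 5 rose and 2 fell on HFD and 5 rose and 1 fell on RD at 9 months, and 3 rose and 0 fell on HFD and 4 rose and 0 fell on RD at 3 months. Their medians were 0.13 and 0.76 at 9 months and 0.60 and -0.15 at 3 months, HFD first. Bpifb1, a secreted airway defence protein, averaged 100.9 ± 16.4 CPM in HFD silica rats and 9.70 ± 7.66 CPM in HFD air rats at 9 months (3.35 ± 0.34, adjusted p = 9e-09), and Pigr, the receptor that carries immunoglobulin A to the surface, rose by 1.35 ± 0.07 (adjusted p = 6.2e-14). Lyz2, a lysozyme that macrophages and type 2 cells also make, averaged 38020 ± 4425 CPM in HFD silica rats and 14180 ± 876.8 CPM in HFD air rats at 9 months (SD, n = 6 each), a rise of 1.43 ± 0.10 by edgeR (adjusted p = 2.3e-11). On RD at 3 months Spdef, a secretory cell transcription factor, rose by 0.66 ± 0.21 (adjusted p = 0.037). The club cell gene Scgb1a1 fell by 0.44 on HFD at 9 months (adjusted p = 0.012). Of the ionocyte and intercalated cell genes, 3 of 10 listed (9 in the tables) were tested, and 1 rose on each diet at 9 months, Atp6v1c2, a proton pump subunit (0.37 ± 0.06 on HFD and 0.29 ± 0.06 on RD). At 3 months 1 rose and 1 fell on HFD, Atp6v1c2 and Slc4a1, and 0 rose and 0 fell on RD. The third gene, Atp6v0a4, was called in none of the 4 comparisons (-0.69 ± 0.44 on HFD at 9 months). The medians of these 3 genes were -0.69 and 0.27 at 9 months and -0.60 and -0.25 at 3 months, HFD first. The defining ionocyte factor Foxi1 had at most 1 count in any library, and Ascl3 at most 7.

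Markers of the 2 organs that share these genes were scarce. The summed level of 7 thyroid genes ranged from 10.1 to 26.6 CPM over all rats, and thyroglobulin (Tg) had 7 to 26 counts in every library and was not called (for example 0.23 ± 0.24 on HFD at 9 months, adjusted p = 0.45). One thyroid list gene rose in all 4 comparisons, the transcription factor Pax8, by 1.46 ± 0.28 on HFD and 0.78 ± 0.26 on RD at 9 months. The 4 salivary genes present summed to at most 5.33 CPM in any rat, and Bpifa2 had at most 1 count. Type 2 cell markers were higher with silica, with 6 of 7 called higher on HFD and 5 of 7 on RD at 9 months and 6 of 7 on each diet at 3 months, while ciliated cell markers were lower, with 6 of 7 and 4 of 7 at 9 months and 1 of 7 on each diet at 3 months. All 5 endothelial markers on HFD at 9 months and 4 of 5 in each other comparison were lower, none of the 2 tested basal cell markers was called, and of 7 neutrophil markers 5 on HFD and 7 on RD at 9 months and 3 on HFD and 6 on RD at 3 months were higher. The part of any of these cell types in the levels of the 6 genes was not tested.

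Over the 8 group means of log2 CPM, the genes whose pattern was most like that of Slc26a4 among 12501 compared were C4bpa, Gas2l3, Slamf8, Ccl2 and C3, with Pearson r between 0.997 and 0.999. For Lpo they were Csf2rb, Rgs19, Ttc7a, Dhrs9 and Slc36a1 (r from 0.995 to 0.999). Duox1 and Duoxa1 had each other among their 3 most alike, at r = 0.994, with Sc5d first for both, at r = 0.995. The likeness is in shape and not in size: from HFD silica to HFD air at 9 months the group means of log2 CPM were 8.13 and 2.04 for Slc26a4, 7.84 and 5.17 for C4bpa, 5.93 and 1.42 for Ccl2, and 5.75 and 4.98 for Sc5d. These values describe 8 points that share libraries and a large silica difference, and carry no test.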

How the data were processed

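Lung RNA of 42 rats was read from stranded total RNA libraries with ribosomal RNA depleted, per the labels' protocols. The authors deposited 1 table of raw read counts per gene symbol for each time, with 1 column per rat. The submitters' processing notes name the build Rnor_6.0, HTSeq 0.6.1, SAMtools 0.1.19, Bowtie2 2.2.9, TopHat2 2.0.9, Trimmomatic 0.35 and bcl2fastq 2.19; the annotation and strand setting are not given in the sources used here.

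Counts were tested with edgeR 4.0.16 in R 4.3.3 (limma 3.58.1 installed): filterByExpr, TMM scaling, quasi-likelihood tests with legacy=FALSE, the 4 groups of a time in 1 model (15276 genes at 9 months, 15234 at 3 months) and all 8 groups for time (15759 genes), with Benjamini-Hochberg adjustment over all genes and calls below 0.05. Models were also run on simulated data, whose outcome is not reported here, and nothing is read from it. No p is given for silica minus air in the 6 genes, nor for its difference between diets or times, since the genes were chosen by it. Members, gene lists and tests were chosen with earlier results of these data known. Named genes are the 6 members, the 3 with the smallest p of each list in each of the 4 silica comparisons (some list genes are not reported here), and the 5 or 3 most alike in pattern; Nox1, Nox4, Slc26a3, Scgb1a1 and the genes given by counts alone were chosen after their values were seen. Levels use TMM over the 30044 shared symbols. Rats are numbered in accession order, and no label gave a batch or a pairing. The closest libraries of a group differed by more than counting error (chi-square per degree of freedom of at least 1.99). Alternatives were RLE scaling, no filter, DESeq2 1.42.0, legacy=TRUE, the ribosomal RNA share (Rnr1 and Rnr2) as covariate, fewer groups in the model and leaving out each rat. Duox2 and Duoxa2 rest on at most 18 counts per library, and intervals on counts cover counting error only. Sequences and gene order come from RefSeq tables of GRCr8.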

Additional observations from a re-analysis of the deposited data

Results flagged for a closer look

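Of 48 sets of rats (6 genes in 8 groups), 6 held a rat far from the others of its group. The measure used marks about 1 in 20 groups of independent, normally spread values by chance, which the Lpo air groups with mostly 0 or 1 counts are not, and 4 of the 6 cases come from the same 2 rats. Slc26a4 was at 14.65 CPM in HFD air rat 6 of 9 months, against 1.99 to 4.05 CPM in the other 5, and Lpo was at 6.76 CPM in the same rat, against 0 to 0.900 CPM. At 3 months HFD air rat 4 stood apart in both genes, with Slc26a4 at 6.32 CPM against 2.12 to 3.29 CPM and Lpo at 2.5 CPM against 0 to 0.130 CPM in the others. Slc26a4 was also high at 3 months in RD silica rat 4, at 181.1 CPM against 86.7 to 110.99 CPM, and in HFD silica rat 1, at 117.3 CPM against 59.7 to 73.7 CPM.

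The silica difference was larger at 9 than at 3 months on both diets for Slc26a4, Lpo, Duox1 and Duoxa1. On HFD it was larger by 1.59, 4.04, 1.61 and 1.01 in that order, on the log2 scale. On RD it was larger by 0.53, 3.24, 1.28 and 0.80. The HFD value of Lpo was 0.73 without HFD air rat 4 of 3 months and 6.02 without HFD air rat 6 of 9 months. The 95% intervals of Slc26a4 (-0.40 to 1.45) and Lpo (-2.46 to 8.95) on RD spanned both directions. These values are built from the silica contrasts by which the genes were chosen, Lpo passed the low-count filter only through its silica groups, and time, age and table cannot be told apart, so they are given as a description.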

How the results depend on the processing

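Duox2 and Duoxa2 passed the filter at neither time, so the main fits did not test them for diet. The count of the 4 tested genes called for diet under silica at 9 months was 1. It was 0 with the ribosomal RNA share as covariate or in a model of only the 2 groups compared. It ran from 0 to 1 over the leave-one-out fits. The count for diet in air at 9 months was 1, and 0 with the ribosomal RNA share. The count for the silica difference by diet at 9 months was 0, and ran from 0 to 1 when each rat was left out. The count for time on HFD was 4, and ran from 2 to 4 when each rat was left out (2 without HFD air rat 2 or 4 of 3 months). The last 2 counts come from the silica contrasts by which the genes were chosen. Over all genes, edgeR called 1.09% for silica by diet at 9 months and 10.7% for time on HFD. Lpo, among the 4 counted for time, passed the low-count filter only through its silica groups. These 2 counts only show how the fits vary with the processing, and nothing else is read from them. Lpo for diet under silica at 9 months turned to 0.16 with the ribosomal RNA share, and Duoxa1 for silica by diet at 3 months, 0.0049, turned to -0.0073 without the filter, -0.0082 with legacy=TRUE and -0.013 with DESeq2. Leaving out rats turned 23 values, and no diet call was among them. Lpo turned for diet in air (between -1.33 and 2.91 at 3 months and between -0.92 and 1.56 at 9 months). It also turned for diet under silica (between -0.10 and 0.35 at 3 months and between -0.14 and 0.15 at 9 months). For silica by diet Lpo lay between -2.84 and 1.40 at 3 months and between -1.61 and 0.87 at 9 months. Duox1 (between -0.061 and 0.21) and Duoxa1 (between -0.18 and 0.21) turned for silica by diet at 3 months. All other counts given here, over the 6 genes and over the listed genes, stayed within 1.5 times. The exception was 1 called peroxidase that was not called without the filter (HFD at 3 months). DESeq2 and edgeR called 348 and 167 of all genes for silica by diet at 9 months, 730 and 449 for diet in air at 3 months, and 227 and 107 for diet under silica at 3 months. The cause was not tested. No paired analysis was possible because the groups share no rat tags and the replicate numbers only name rats. Low counts limit Duox2, Duoxa2 and Lpo in air.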
